A study of Mus musculus with 6 samples.

Results

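Zbtb16 is the gene of PLZF (promyelocytic leukaemia zinc finger), a transcription factor with a BTB domain and a row of zinc fingers. It lies on mouse chromosome 9 (gene ID 235320, chr9:48651797-48836225 in mm10, a span of 184.429 kb), and its locus was taken as this span with 50 kb on each side. Every peak of the 6 deposited lists that overlapped this interval was kept. The interval held 6 of the 277107 peaks, which merged into 3 of the 101435 regions made by joining overlapping peaks of all lists. The gene was chosen by measured values, namely window coverage by peaks that was above 0 in both FK866 libraries and 0 in both libraries with added succinate, so its values in the comparisons with FK866 plus succinate are given as a description, with no test.

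The BTB domain lets PLZF pair with itself and recruit corepressor complexes with NCOR proteins and histone deacetylases, while the zinc fingers bind DNA. Among innate lymphoid cells PLZF is known as the mark of committed precursors, which switch it on transiently, and mature group 2 innate lymphoid cells (ILC2s) keep little of it. It also drives the innate-like effector program of natural killer T cells.

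The libraries came from mouse colon ILC2s cultured with the cytokines IL-33, IL-25, IL-7 and IL-2 and sorted before CUT&Tag, an assay in which an antibody on chromatin directs a transposase to cut the DNA around it. The groups, of 2 libraries each, were cells given FK866 plus succinate, cells given FK866 alone and untreated cells (Control), and all of them received the same cytokines. FK866 blocks NAMPT, the enzyme that salvages nicotinamide for NAD, and succinate is a metabolite of the tricarboxylic acid cycle. The sources used here give neither the antibody's target nor the dose, time, strain or number of animals, and do not say whether libraries of 1 group came from separate cultures, so each p value measures only the spread between these libraries. A peak therefore stands for enrichment of an unnamed target, and a weaker peak in all cells cannot be told apart from fewer cells that carry it.

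The lists held between 40320 and 56361 peaks. Their only trace of depth is the background that their fold values imply, in fragments per position: 1.74 and 1.25 with FK866 plus succinate, 2.11 and 1.60 with FK866, and 1.85 and 2.14 in Control. The second FK866 plus succinate library stood apart, with the lowest background, the longest list and the narrowest peaks (a median of 528 bp, against 616 to 737 bp in the other 5). All 10 ILC2 markers, among them Gata3, Il1rl1 and Il5, had peaks in all 6 libraries, and their summed window coverage was 663 to 686 points with FK866 plus succinate, 682 to 685 with FK866 and 658 to 669 in Control.

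The locus was almost bare of peaks, and the peaks it had lay mostly at 1 place. No peak was listed in the interval in the first FK866 plus succinate library and 1 in the second, 1 in each FK866 library, and 2 and 1 in the Control libraries. Both FK866 libraries and both Control libraries had a peak across the upper-coordinate end of the gene, and neither FK866 plus succinate library did. In the mouse the gene is read from the minus strand, so this is its 5′ end; the gene table used here gives neither strand nor exons.

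The merged region at the upper end spanned chr9:48835680-48836527 (848 bp). In FK866 the first library's peak covered chr9:48835680-48836458 (779 bp) and the second's chr9:48835790-48836396 (607 bp). In Control the first library's peak covered chr9:48835706-48836488 (783 bp) and the second's chr9:48835723-48836527 (805 bp). The 4 peaks shared a core of 607 bp, which is the whole peak of the second FK866 library, with 436 bp inside the gene and 171 bp beyond its end. The overlap of 2 peaks as a share of the bases in either (the Jaccard index) was 0.779 for the FK866 pair and 0.932 for the Control pair, and between 0.754 and 0.931 for an FK866 peak against a Control peak.

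Summits lay 229 and 275 bp inside the gene in the FK866 libraries. In Control the first library's summit lay 72 bp beyond the gene end and the second's 326 bp inside it. The Control summits thus stood farther apart than the FK866 ones, on both sides of them.

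**Figure D1:**
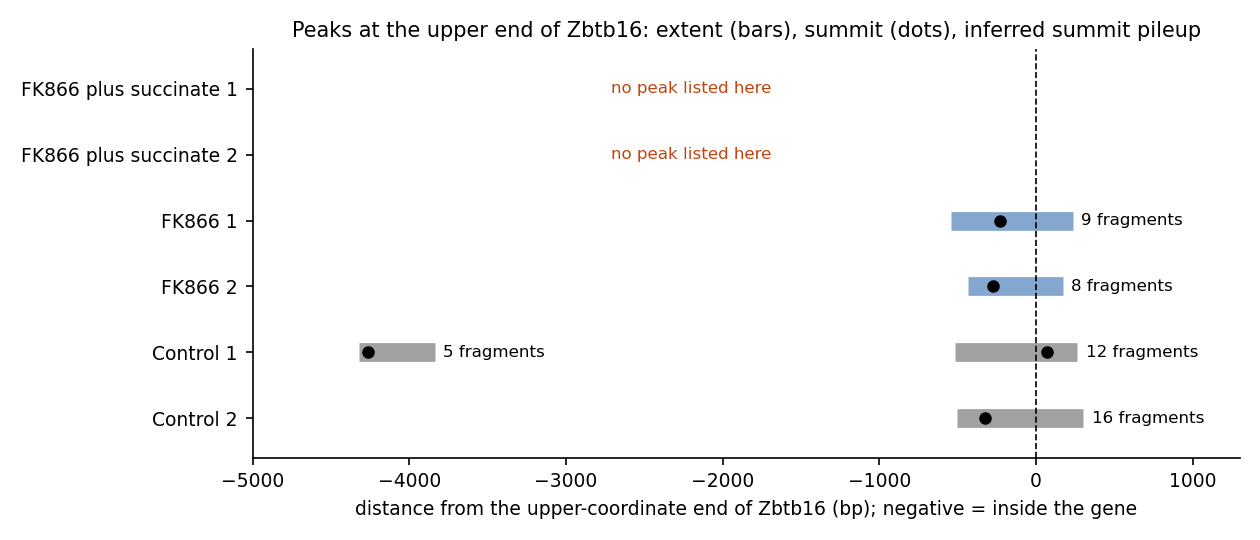
Peaks at the upper-coordinate end of Zbtb16 in each library; the x axis is the distance from that end in bp (negative inside the gene), bars are peaks, dots are summits, and the label gives the fragments stacked at the summit as inferred from the fold values. Both FK866 and both Control libraries have a bar across the gene end, neither FK866 plus succinate library does, and a second, lone bar of the first Control library lies inside the gene.

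The deposited fold over local background and −log10 p refer to 1 library at a time and depend on its depth. Libraries were therefore set against each other by the percentile of the −log10 p. This is the peak's rank from the lowest among the library's own peaks, as a percentage of them, with tied peaks given their mean rank. The FK866 peaks had folds of 3.22 and 3.47 and percentiles of 40.0 and 48.7. The Control peaks had folds of 4.57 and 5.41 and percentiles of 63.9 and 60.0. Both FK866 peaks thus ranked below the middle of their lists and both Control peaks above it.

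As deposited, and with no comparison drawn between libraries, the −log10 p was 4.14 and 4.35 in FK866 and 7.07 and 9.80 in Control, and the −log10 of the adjusted p was 2.04 and 2.21 in FK866 and 4.87 and 7.56 in Control. All 4 peaks passed an adjusted p of 0.05 in the authors' deposited lists. The percentile averaged 44.4 ± 6.19 in FK866 and 62.0 ± 2.77 in Control (SD, n = 2 each), without overlap.

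Such an order is frequent in these lists. Of the 24210 merged regions with a peak in all 4 libraries, 22.5% had both FK866 percentiles below both Control percentiles and 5.3% had them above. Peak widths at Zbtb16 were 693 ± 122 bp in FK866 and 794 ± 15.6 bp in Control (SD, n = 2 each), without overlap, and 17.4% of the same regions had both FK866 widths below both Control widths and 15.7% had them above. An exact permutation test of 2 libraries against 2 allows no two-sided p below 0.333, so none was run on these values.

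The fold values fall on steps that allow the fragments stacked at a summit to be inferred for these peaks. The FK866 summits held 9 and 8 fragments, which is 4.27 and 5.01 times the library background, and the Control summits held 12 and 16, which is 6.50 and 7.47 times. FK866 averaged 8.5 ± 0.707 fragments and Control 14.0 ± 2.83 (SD, n = 2 each). Few fragments thus stood behind each peak, and the lists hold no molecular identifiers that would tell PCR copies from separate fragments.

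The FK866 plus succinate lists also held peaks with fewer fragments at the summit than these. Summit levels were taken among peaks on whole steps and had to be held by at least 10 of them. The lowest such level was 4 fragments in the first library (1888 peaks) and 3 in the second (4725 peaks). The FK866 ratios over background would correspond to 7.41 and 8.71 fragments in the first FK866 plus succinate library and to 5.33 and 6.27 in the second. These are scaled values without a counting error. The second FK866 library, with a lower background (1.60) than the first FK866 plus succinate library (1.74), had the peak. The second FK866 plus succinate library had a lower background (1.25) than any library with the peak. The part of depth in the absence of the peak was not tested.

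**Figure D2:**
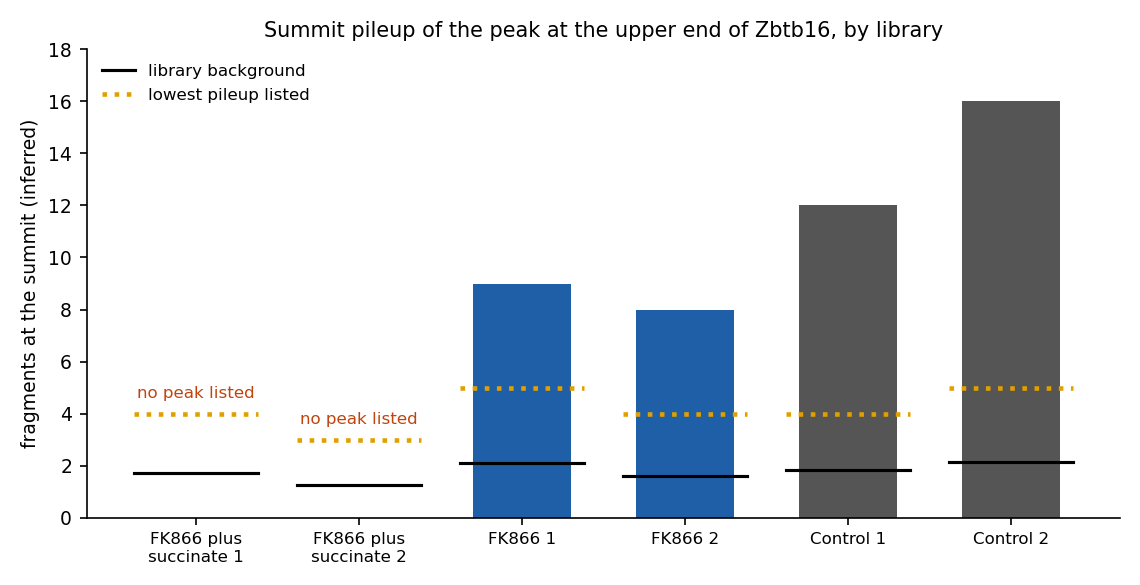
Inferred fragments at the summit of the peak over the upper end of Zbtb16 (y axis, bars) in each library, with the library's background per position (black line). The dotted line is the lowest summit level held by at least 10 of its peaks on whole steps. Bars stand at 9 and 8 fragments in FK866 and at 12 and 16 in Control. The FK866 plus succinate libraries have no bar, and their dotted lines lie at 4 and 3 fragments.

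The other peaks of the locus were each listed in 1 library only and were weak. In the second FK866 plus succinate library a peak of 433 bp lay deep inside the gene at chr9:48735333-48735765, 100.46 kb from the upper end, with a fold of 2.22, a percentile of 22.1 and 4 fragments at its summit. In the first Control library a peak of 487 bp lay at chr9:48831902-48832388, 3.837 kb inside the upper end, with a fold of 2.11, a percentile of 13.7 and 5 fragments. Neither passed an adjusted p of 0.05 in the authors' deposited lists, with a −log10 adjusted p of 0.0174 in the FK866 plus succinate library and 0 in the Control library.

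In FK866 against Control, 0 of the 3 regions at the locus had a peak in both Control libraries and in neither FK866 library (lost), and 0 had the reverse (gained). Over all merged regions 2.04% were lost and 1.4% gained by the same rule in this comparison, and 7.01% of those with a peak in both Control libraries were lost. With FK866 plus succinate the upper-end region was lost against FK866 and against Control, and no region was gained. The shares over all merged regions were 1.68% lost and 2.76% gained against FK866, and 2.06% lost and 2.44% gained against Control. Of the regions with a peak in both FK866 libraries 6.01% were lost, and 9.2% of those whose FK866 percentile was within 5 of that of Zbtb16. Of the regions with a peak in both Control libraries 7.06% were lost. Both comparisons use the same FK866 plus succinate libraries, and the gene was chosen for this pattern.

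Regions with a peak in all 4 FK866 and Control libraries and in neither FK866 plus succinate library numbered 487 of 24210 (2.01%). Among the 2751 of these 24210 regions whose mean percentile over the 4 libraries lay within 5 of that of Zbtb16, which was 53.2, the share was 59, or 2.14%. The 487 regions had a median of 36.6 on the same scale, and 93.0% of them lay below the Zbtb16 region. Of the 487 merged regions, 256 were at least as wide as the merged region of Zbtb16. By the mean percentile over the 4 libraries, the Zbtb16 region thus ranked above most regions that were missing with added succinate. In FK866 alone its mean percentile was 44.4, against a median of 35.2 for the 487 regions. Its merged width was a common one among them.

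Of the 6 nearest merged regions outside the interval, 3 on each side, 2 had a peak in all 6 libraries. The interval also touches Nnmt (nicotinamide N-methyltransferase, chr9:48538002-48607655), which had no peak in the overlapping stretch, and Gm32280 (chr9:48670083-48674689), inside the Zbtb16 span, which had none in any library. The nearest region outside on the lower side, chr9:48537653-48539076 at the lower end of Nnmt, lay 62.72 kb from the interval and had a peak in all 6 libraries. Its percentiles were 69.3 and 75.7 with FK866 plus succinate, 66.4 and 67.7 with FK866 and 70.9 and 65.8 in Control.

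On the upper side the nearest region, chr9:48977808-48978218, lay 91.582 kb outside the interval and was listed in the first FK866 library only. The next, chr9:48984475-48986081 at the lower end of Usp28 (a deubiquitinase), had a peak in all 6 libraries, with percentiles of 89.8 and 90.0 with FK866 plus succinate, 91.5 and 90.7 with FK866 and 92.4 and 88.8 in Control. The serotonin receptor genes Htr3a and Htr3b between Zbtb16 and Usp28 had no peak. Between the Nnmt and Usp28 regions stretched 445.398 kb with 4 merged regions, 3 of them at the Zbtb16 locus.

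**Figure D3:**
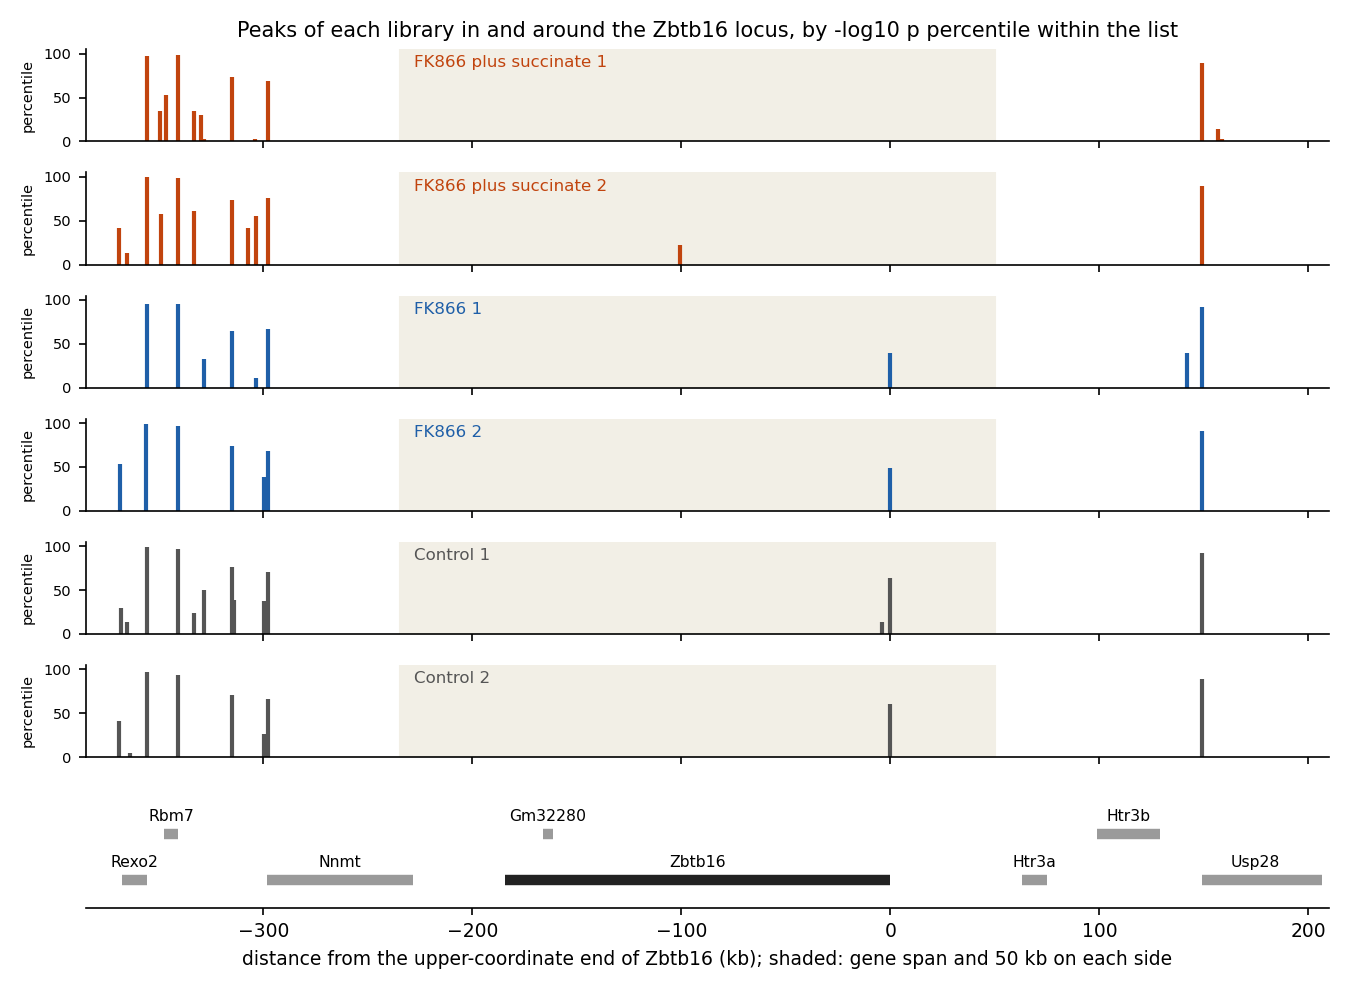
Peaks of each library (vertical lines) around Zbtb16, with the −log10 p percentile within the library's list on the y axis and the distance from the upper end of Zbtb16 in kb on the x axis; grey bars are genes and the shading is the gene span with 50 kb on each side. The peaks at Nnmt and Usp28 stand in all 6 libraries, and the peak at position 0 stands in the 2 FK866 and the 2 Control libraries.

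For a measure that is available at every gene, the percentage of a 4-kb window covered by peaks was taken around each gene's lead site, the peak summit in or near the gene with the highest mean percentile over the 6 libraries. Peaks covered 0% and 0% of the Zbtb16 window with FK866 plus succinate, 19.5% and 15.2% with FK866, and 19.6% and 20.1% in Control. The 0% with FK866 plus succinate and the coverage above 0% in FK866 were set by the choice of the gene. Both FK866 values lay below both Control values, and how many of all windows have this order was not counted. The means were 0%, 17.3% ± 3.04 and 19.9% ± 0.389 (SD, n = 2 each).

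The choice of the gene required coverage above 0 in both FK866 libraries, so the test of FK866 against Control is not independent of that choice and supports nothing by itself. FK866 minus Control was −2.53 points (SE 2.82), with an adjusted p of 0.993 and an unadjusted p of 0.412 in limma over 15168 genes and 6 libraries (n = 2 per group). The difference was smaller than the spread within FK866. In this comparison limma called 0 genes (0%), with 771 at an unadjusted p under 0.05. With FK866 plus succinate limma also called 0 genes (0%) against FK866 and against Control, with 2038 and 2113 at an unadjusted p under 0.05.

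Where only the higher-scoring 50% of each list was kept, both FK866 peaks at Zbtb16 dropped out, since they ranked below the middle. FK866 minus Control was then −19.85 points (adjusted p = 0.674 in limma, n = 2 per group) and FK866 plus succinate minus FK866 was 0. Without the second FK866 library FK866 minus Control was −0.375 points, and without the first it was −4.68, with limma's adjusted p at 1 and 0.917, where the lone FK866 library left was taken to vary like the other groups.

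In FK866 and Control the Zbtb16 window ranked low among genes, while its 0% with FK866 plus succinate was set by the choice of the gene. Of the 15891 protein-coding genes with a site, 14.8% had a lower mean than Zbtb16 in FK866 and 15.1% in Control, where the median gene had 38.3% in both groups. The median gene had 36.4% with FK866 plus succinate. Windows covered in all 4 FK866 and Control libraries and in neither FK866 plus succinate library numbered 59 of these genes, Zbtb16 among them. By the lost and gained rule, applied to windows, 0.592% were lost and 0.812% gained with FK866 plus succinate against FK866, 0.931% and 0.51% against Control, and 0.692% and 0.22% with FK866 against Control, where Zbtb16 was neither.

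Over the whole interval the covered share was 0% and 0.152% with FK866 plus succinate, 0.274% and 0.213% with FK866, and 0.447% and 0.283% in Control. The groups did not overlap, but how many of all genes have such an order was not counted. The low values with FK866 plus succinate follow in part from the choice of the gene. The second FK866 plus succinate value comes from the lone peak deep in the gene, and part of the first Control value from the lone peak near the end. FK866 minus Control was −0.121 points (SE 0.0980, adjusted p = 1 in limma over 17439 genes, n = 2 per group), where limma called 0 genes (0%), with 678 at an unadjusted p under 0.05. The median over all 21887 genes was 3.33% with FK866 plus succinate, 3.04% with FK866 and 3.25% in Control, against means of 0.0761% ± 0.108, 0.244% ± 0.0428 and 0.365% ± 0.116 at Zbtb16 in the same order (SD, n = 2 each).

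The 5 genes whose window coverage lay nearest to that of Zbtb16 (Euclidean distance over the 6 libraries, between 4.86 and 6.53 points) were Fzd10, Cyp26a1, Diras1, Aldh3b2 and Crhr1. Fzd10, a Wnt receptor, had 0% in each FK866 plus succinate library, 18.3% and 12.8% in FK866 and 21.8% and 16.7% in Control. Cyp26a1, which breaks down retinoic acid, had 0% in both, then 20.4% and 15.3% in FK866 and 15.6% and 16.4% in Control. Diras1, a small GTPase, Aldh3b2, an aldehyde dehydrogenase, and Crhr1, the receptor of corticotropin-releasing hormone, were also at 0% in both FK866 plus succinate libraries.

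Diras1 averaged 16.7% ± 3.80 in FK866 and 15.7% ± 0.955 in Control, Aldh3b2 17.9% ± 2.86 in FK866 and 18.9% ± 6.33 in Control, and Crhr1 13.9% ± 4.84 in FK866 and 20.04% ± 3.55 in Control (SD, n = 2 each). FK866 values overlapped Control values at Fzd10, Cyp26a1, Diras1 and Aldh3b2, and lay below them at Crhr1, as at Zbtb16. At their lead sites the peaks of these genes had percentiles of 63.9 or less in every library, and the site of Cyp26a1 lay outside any peak in the second FK866 and second Control libraries.

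**Figure D4:**
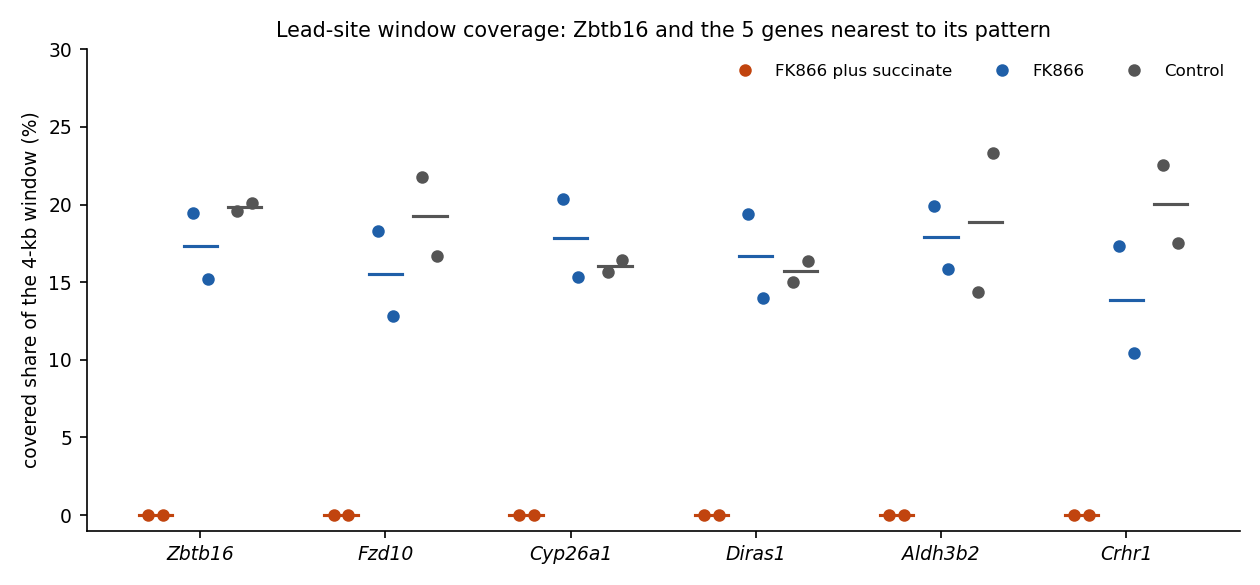
Covered share of the 4-kb lead-site window (y axis, %) at Zbtb16 and the 5 genes nearest to it; points are libraries and short lines are means of the 2 libraries of a group. All 6 genes stand at 0% in each FK866 plus succinate library and between 10 and 24% in FK866 and Control.

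Most genes of the innate lymphoid precursor stage had a peak in every library. Of 28 names, 27 had a site, and 25 were covered in all 6 libraries. None was called by limma in any comparison. Their medians were 58.9% with FK866 plus succinate, 58.7% with FK866 and 59.8% in Control, and Zbtb16 lay below all 27 in FK866 and in Control. Tox, a factor that acts early in the lineage, averaged 64.0% ± 0.0354 with FK866 plus succinate, 63.1% ± 0 with FK866 and 64.1% ± 0.177 in Control (SD, n = 2 each). Nfil3, another early factor, averaged 82.3% ± 1.52, 76.1% ± 6.26 and 74.3% ± 4.70 in the same order of groups.

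Gata3, a factor that ILC2s need, averaged 60.5% ± 0.689 with FK866 plus succinate, 57.9% ± 4.51 with FK866 and 59.6% ± 3.64 in Control. Rora, another such factor, averaged 64.2% in each group, with SDs of 0.0530 or less. Id2, the inhibitor of E proteins found in all innate lymphoid cells, averaged 31.0% ± 0.0884, 29.7% ± 1.63 and 35.8% ± 7.76 in the same order of groups (SD, n = 2 each). Bcl11b, a factor of ILC2 commitment, had 50.2% and 25.7% with FK866 plus succinate, 30.6% and 29.2% with FK866 and 30.2% in both Control libraries. Its values with added succinate lay on both sides of the rest.

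A loss in 1 library only was seen at 2 members. Tcf7 (TCF-1, an early innate lymphoid factor) had 24.2% and 0% with FK866 plus succinate, 37.9% and 46.4% with FK866 and 20.1% and 30.1% in Control. Flt3, a cytokine receptor of early progenitors, had 16.0% and 0% with FK866 plus succinate, 33.3% and 20.8% with FK866 and 42.6% and 26.4% in Control. The 0% values are both of the second FK866 plus succinate library, the one with the lowest background. For Tcf7, FK866 plus succinate minus FK866 was −30.1 points (adjusted p = 0.287 in limma, n = 2 per group), and for Flt3, FK866 plus succinate minus Control was −26.5 points (adjusted p = 0.296). The median difference over the 27 genes was −0.138 points in FK866 minus Control, −0.263 in FK866 plus succinate minus FK866 and −0.225 in FK866 plus succinate minus Control, against −0.05, −1.51 and −1.54 over all genes.

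The BTB zinc finger family, to which PLZF belongs, had 46 genes with a site, all covered in all 6 libraries, and none was called by limma. The lowest member had 22.8% with FK866 plus succinate, 23.5% with FK866 and 22.3% in Control, and Zbtb16 lay below all 46 in FK866 and in Control. Bcl6, a repressor of lymphocyte differentiation genes, averaged 38.3% ± 0.566 with FK866 plus succinate, 38.1% ± 1.06 with FK866 and 38.1% ± 0.442 in Control. Zbtb7b (ThPOK), a factor of the CD4 T cell lineage, averaged 81.1% ± 4.61, 84.4% ± 0 and 84.3% ± 0.141 in the same order, Zbtb32 (PLZP) 53.5% ± 2.03, 57.4% ± 0.407 and 57.0% ± 0.884, and Zbtb20 57.4% ± 1.48, 56.3% ± 3.20 and 56.4% ± 0.460 (SD, n = 2 each).

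The largest difference in the family was at Zbtb34 in FK866 plus succinate minus Control, 10.8 points (adjusted p = 0.238 in limma, n = 2 per group). The next was at Zbtb5, −9.38 points in FK866 plus succinate minus FK866 (adjusted p = 0.148), with 54.7% and 53.5% with FK866 plus succinate, 61.9% and 65.0% with FK866 and 62.4% and 61.0% in Control. Zbtb6 and Zbtb8a had the most negative differences in the other comparisons, −9.00 points in FK866 plus succinate minus Control and −5.51 points in FK866 minus Control. The family median was −0.075 points in FK866 minus Control, −2.01 in FK866 plus succinate minus FK866 and −2.07 in FK866 plus succinate minus Control, close to the −0.05, −1.51 and −1.54 of all genes.

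**Figure D5:**
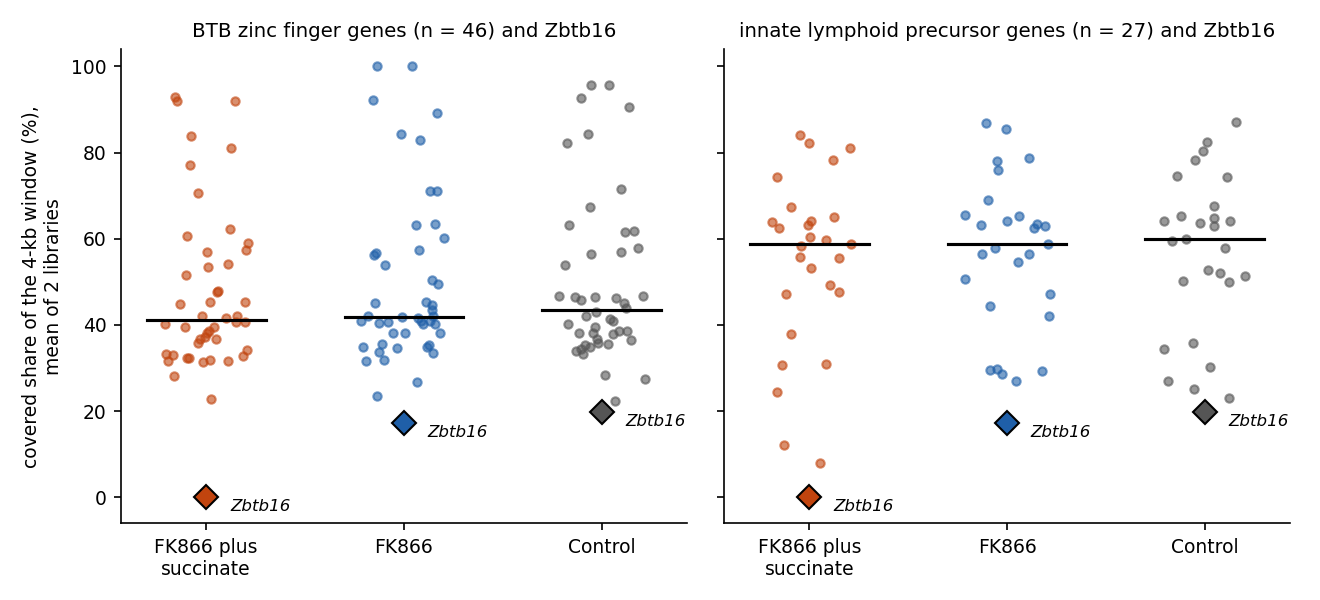
Mean window coverage (y axis, %, mean of 2 libraries) of the BTB zinc finger genes and the innate lymphoid precursor genes (dots), their median (line) and Zbtb16 (diamond) in each group. Zbtb16 lies at 17.3% in FK866 and 19.9% in Control, below each dot of these groups in both lists; its 0% with FK866 plus succinate was set by the choice of the gene.

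PLZF partners and regulators had 25 genes, all covered in all 6 libraries, and none was called by limma. Cul3, the ubiquitin ligase scaffold that PLZF binds, averaged 55.9% ± 1.17 with FK866 plus succinate, 56.7% ± 0.371 with FK866 and 56.6% ± 1.03 in Control (SD, n = 2 each). The corepressor gene Ncor1 averaged 66.9% ± 6.06, 74.4% ± 5.78 and 71.7% ± 0.937 in the same order, the deacetylase gene Hdac3 52.9% ± 1.52, 54.1% ± 0.124 and 54.0% ± 0.548, and Egr2, which activates Zbtb16 in natural killer T cells, 67.2% ± 2.23, 71.6% ± 2.90 and 70.3% ± 10.1. Rara, whose human counterpart is fused to PLZF in a form of leukaemia, averaged 66.0% ± 11.3, 70.9% ± 6.05 and 65.8% ± 10.6. The median difference was 0.763 points in FK866 minus Control, −1.73 in FK866 plus succinate minus FK866 and −1.08 in FK866 plus succinate minus Control.

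Genes of innate-like T cells, in which PLZF acts, had 15 of 20 members with a site and none called by limma. Their median difference was 0.0625 points in FK866 minus Control, 0.363 in FK866 plus succinate minus FK866 and 1.25 in FK866 plus succinate minus Control. Klrb1b, a killer-cell lectin-like receptor, had 46.2% and 30.9% with FK866 plus succinate, 35.9% and 31.5% with FK866 and 28.0% and 20.98% in Control. The Src-family kinase gene Fyn had the list's most negative difference in both comparisons with added succinate. It had 59.1% and 53.3% with FK866 plus succinate, below all 4 other libraries, which lay between 62.8% and 63.9%. Its adjusted p was 0.288 against FK866 and 0.272 against Control in limma (n = 2 per group). The median difference of all genes was also negative, −1.51 and −1.54 points, and how many of all windows have this order was not counted.

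With quantile normalization of the libraries the median difference of all genes turned to 0.321 points in FK866 plus succinate minus FK866 and 0.459 in FK866 plus succinate minus Control. The medians of the precursor, BTB and partner lists turned positive with it in both comparisons, so no direction of these lists with added succinate holds under both scalings. The BTB median in FK866 minus Control also changed sign, to 0.00625 points.

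Markers of other cells were measured in the same way. Of 10 T cell markers 8 had a site, 6 were covered in all 6 libraries, and their summed coverage was 154 to 206 points with FK866 plus succinate, 234 to 247 with FK866 and 199 to 245 in Control, so the FK866 plus succinate range met that of Control but not that of FK866. Cd3e, a chain of the T cell receptor complex, was at 0% in each FK866 plus succinate library, 8.48% and 6.15% with FK866 and 13.8% and 0% in Control. In FK866 plus succinate minus FK866, 5 of the 8 T cell markers had a negative difference and 3 a positive one. Foxp3, which had the most negative, had 7.325% and 26.4% with FK866 plus succinate, 46.95% and 42.35% with FK866 and 29.7% and 21.3% in Control. Its adjusted p against FK866 was 0.248 in limma (n = 2 per group). Among the positive ones, Cd247, another chain of that complex, had 41.2% and 39.9% with FK866 plus succinate, 37.9% and 39.5% with FK866 and 36.3% and 42.0% in Control. Cd8a and Cd8b1, which define CD8 T cells, had no site in any library. With added succinate the median difference of the 8 T cell markers was −4.41 points against FK866 and −4.71 against Control. With quantile normalization it was −4.27 and −3.05, so it stayed negative where the medians of all genes turned positive.

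Of 22 markers of natural killer cells, other innate lymphoid cells, B cells, myeloid cells, mast cells and epithelium, 14 had a site and 6 were covered in all 6 libraries. Their sum was 195 to 237 points with FK866 plus succinate, 256 to 275 with FK866 and 321 in both Control libraries, without overlap. Separate sums were also seen outside the marker lists. The PLZF partners summed to 1242 to 1258 points with FK866 plus succinate, 1306 to 1309 with FK866 and 1281 to 1294 in Control, without overlap. The BTB genes summed to 2185 to 2216, 2302 to 2304 and 2262 to 2323 in the same order of groups. In the precursor, innate-like T cell and ILC2 lists the FK866 plus succinate and FK866 sums overlapped. How many other gene sets have such orders was not counted. No marker of either list was called by limma, and 8 of the 22, among them Ncr1, Il17a, Ms4a1 and Cpa3, had no site. Eomes, a natural killer cell factor, had 40.8% and 39.7% with FK866 plus succinate, 59.9% and 61.4% with FK866 and 62.6% and 56.3% in Control, with an adjusted p of 0.124 against FK866 and 0.107 against Control in limma (n = 2 per group). Of the 12 markers tested, 8 had a negative difference and 4 a positive one in FK866 plus succinate minus FK866, and Eomes had the most negative. Lyz2, a myeloid lysozyme gene with the most positive difference, had 9.25% and 0% with FK866 plus succinate, 0% in each FK866 library and 6.80% and 0% in Control. The median difference of the 12 markers with added succinate was −3.24 points against FK866 and −8.775 against Control. With quantile normalization it was −1.94 and −6.54, also negative. The part of such cells in the absence of the Zbtb16 peak was not tested.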

How the data were processed

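CUT&Tag was run on 6 libraries of cultured mouse colon ILC2s, with groups and replicate numbers from the labels. Per the submitters' processing notes, reads were handled with cutadapt 1.9 and Bowtie2 2.5.0 on mm10; which peak caller was used is not stated there. The authors called peaks per library and deposited lists in the 10-column narrowPeak layout: start, end and summit positions, a score, a fold enrichment (a ratio over local background), and −log10 p and −log10 q. These deposited values, the score included, refer to 1 library and depend on its depth, so libraries were set against each other by percentiles within a list, and folds and p-values are printed as deposited.

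Peaks on chromosomes 1 to 19, X and Y were used; the 43 to 55 peaks on other sequences in each list were dropped. Peaks overlapping by at least 1 bp were merged into regions. Background and summit pileup were inferred from fold = (pileup + 1) / (background + 1). Between 27.8% and 44.2% of each list's folds lay on whole steps (tolerance 0.002), and at least 99.0% of those had a −log10 p within 0.02 of a Poisson value. A library's lowest summit level was the lowest one held by at least 10 of these peaks. Read depth is otherwise unknown, so no counting interval was given.

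Gene spans came from a GRCm38.p6 table, whose coordinates are those of mm10. Windows reached 2 kb to either side of a lead site, searched in the gene span and 2 kb around it. Coverage of windows, and of gene spans with 50 kb on each side, was compared by limma 3.58.1 (lmFit, eBayes with trend, all 6 libraries, features covered in at least 2) in R 4.3.3, with Benjamini-Hochberg adjustment over all genes at 0.05 and tested on simulated data. Other steps used Python 3.11.15, pandas 2.3.3, numpy 2.4.6 and scipy 1.17.1. The locus, the gene lists and the tests were chosen with earlier results of these data known. Genes named are those overlapping the interval, the 5 nearest in coverage, list members with the largest difference in either direction in a comparison, and a fixed set of lineage, BTB and partner genes; examples were taken from these. Alternatives covered normalization, filters, list thresholds, window and flank size, the replicate number as a block, and each library left out.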

Additional observations from a re-analysis of the deposited data

How the results depend on the processing

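Zbtb16 in FK866 minus Control kept its negative sign and stayed past no threshold under all 14 alternatives, for window coverage (−19.85 to −0.375 points) and interval coverage (−0.279 to −0.0355 points). The replicate numbers share only a number (correlations of deviations between −0.147 and 0.0622), and limma with them as a block gave −2.53 points (adjusted p = 1) and −0.121 points (adjusted p = 1). FK866 plus succinate minus FK866 in window coverage was 0 with the higher-scoring 50% of each list, −34.65 with windows of 1 kb to either side and −6.93 with 5 kb, and FK866 plus succinate minus Control was −39.7 and −10.4 with these windows and −18.3 with quantile normalization. In interval coverage FK866 plus succinate minus FK866 was 0 with the higher-scoring 50%. With that setting 1 region was lost in FK866 against Control and 0 in FK866 plus succinate against FK866. Where 1 library was left out, limma took the other of its group to vary like the other groups. Leaving out 1 library at a time, regions lost ranged over 0 to 1 in FK866 against Control and 1 to 2 in FK866 plus succinate against Control, with the higher value without the second Control library, and regions gained over 0 to 1 in FK866 plus succinate against FK866 and against Control, with the 1 being the lone peak deep in the gene without the first FK866 plus succinate library. Genes called by limma in window coverage numbered 3 with peaks at an adjusted p under 0.05, 5 with the higher-scoring 50% and 28 with 1 kb in FK866 plus succinate minus FK866, and 3, 9 and 42 in FK866 plus succinate minus Control. In interval coverage they numbered 3 without flanks in FK866 minus Control. They numbered 6 at the adjusted p, 19 with the higher-scoring 50% and 19 without flanks in FK866 plus succinate minus FK866, and 19, 33 and 27 in FK866 plus succinate minus Control, where quantile normalization gave 3. These counts over all genes, and the values of the other named genes, were chosen after seeing the data; 0 of 5754 such values of named genes passed an adjusted p of 0.05. At Zbtb16 the moves with window size come largely from dividing the same peaks, on average 693 bp in FK866 and 794 bp in Control, by a shorter or longer window. The cause of the other moves was not tested, apart from the FK866 peaks at Zbtb16 lying in the lower-scoring part of their lists. No read counts or input control were used here, and 9 and 8 fragments behind the FK866 peaks limit what the lists can show.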
